A study of Mus musculus with 6 samples.

Results

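Interleukins, chemokines, tumour necrosis factor (TNF) superfamily proteins, colony-stimulating factors and the receptors that bind them were examined in stem cell-enriched mouse bone marrow. Members were taken by gene symbol, from probe sets that carry exactly 1 symbol, without the receptor genes Il18r1, Il10ra, Il4ra and Il6st, and with the probe set of highest mean signal where a gene had several. The rule found 74 probe sets of 71 genes, among 10366 genes with a single-symbol probe set and 14610 probe sets tested. The 71 genes comprise 35 ligands, 33 receptors, 2 secreted antagonists (Il1rn and Il18bp) and 1 antisense RNA (Il1bos). The rule reads gene names and no measured difference, although it and the 4 genes it leaves out were written with results of these arrays known.

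The cells were LKS-Slam marker positive bone marrow cells, a sorted population rich in hematopoietic stem cells. One group, labelled Zeb2-KO, came from Zeb2 fl/fl Mx1-Cre mice (genotype given as Zeb2[delta/delta]Mx1-Cre), in which an interferon-inducible promoter drives the Cre recombinase, and the other came from C57Bl/6 WT mice, whose labels name no Cre allele. At the age of 6 weeks both groups received pIC, which induces interferon, and marrow was taken 8 weeks later at 14 weeks, so exposure to pIC is shared and a Cre allele, as labelled, is not. Mx1-Cre acts in many interferon-responsive cells and not in stem cells alone. Each group had 3 arrays described as biological replicates.

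Cytokines reach marrow cells as secreted or membrane-bound ligands, and each cell responds according to the receptors on its surface. Interleukin and colony-stimulating factor receptors mostly signal through JAK kinases and STAT factors, chemokine receptors are G-protein coupled and steer migration, and TNF-family receptors recruit TRAF adaptors or death-domain proteins. In the stem cell niche the chemokine receptor Cxcr4 is known for retaining stem cells in marrow, and interleukin-1, TNF and interferon are known to drive them toward division and myeloid output. Many of the other ligands are made mainly by stromal, myeloid or lymphoid cells.

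None of the 71 genes passed the test for a difference between the groups. limma gave no adjusted p below 0.05 for any of them (smallest adjusted p = 0.673), where 0.0137% of all tested probe sets passed. At an unadjusted p under 0.01 with a change of at least 1.5-fold there were also 0 of 71, against 1.56% of all tested probe sets. At an unadjusted p under 0.05 there were again 0 of 71, against 7.02% (5.69% higher and 1.33% lower). The receptor genes left out by the rule had limma unadjusted p of 9.4e-05 (Il18r1), 0.0201 (Il10ra), 0.0201 (Il4ra) and 0.243 (Il6st). The rule was written with results known, so these counts describe the 71 genes and not the whole family. Each difference in this text is a log2 intensity, mean of Zeb2-KO-labelled arrays less that of WT arrays. Its standard error (SE) is the moderated one of limma. Differences ran from -0.68 for Cxcl2 to 0.84 for Il1a. The SE lay between 0.27 and 0.52, so the 95% interval of a single gene, not adjusted for the number of genes, was 1.21 to 2.30 log2 units wide. For 38 genes that interval lay wholly within a 2-fold change in either direction. For 26 it still allowed a 2-fold lower level and for 7 a 2-fold higher one, so a change of that size stayed within the error of those genes. With limma's array weights, whose estimate did not converge and which gave Zeb2-KO replicate 3 a weight of 8.22 against 0.379 to 1.89 for the others, Il17ra (adjusted p = 0.0487) and Cxcl2 (adjusted p = 0.0494) passed, among 978 probe sets in all.

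The sign of the differences was uneven. Of the 71 genes, 56 lay below 0 and 15 above, whereas 55.4% of all tested probe sets lay below 0. The median difference was -0.26 over the members and -0.089 over all tested probe sets. All 7 TNF ligands, all 3 genes of the colony-stimulating factor family, 11 of 12 chemokine receptors, 11 of 14 chemokine ligands, 9 of 12 interleukin receptors, 6 of 8 TNF receptors and 9 of 15 genes in the interleukin ligand class lay below 0, and none of these single differences passed the test. Median centring left these counts as they were, while quantile normalization put 6 of 7 TNF ligands (all but Tnfsf18), 2 of 3 colony-stimulating factor genes (all but Csf2rb2), 12 of 14 chemokine ligands and 8 of 15 interleukin ligand genes below 0. Groups did not overlap in 4 genes, all of them lower in Zeb2-KO-labelled arrays, namely Ccr3, Il17a, Il23r and Il22ra1. That is 5.63% of members, against 6.26% of all tested probe sets without overlap in that direction, with 6.9% in the other direction, which held no member, and 13.2% in either. A difference of at least 1.5-fold was reached by 1 member upward, Il1a (12.9% of all tested probe sets), and by 3 members downward, Cxcl2, Il10rb and Cxcr6 (3.68%).

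**Figure D1:**
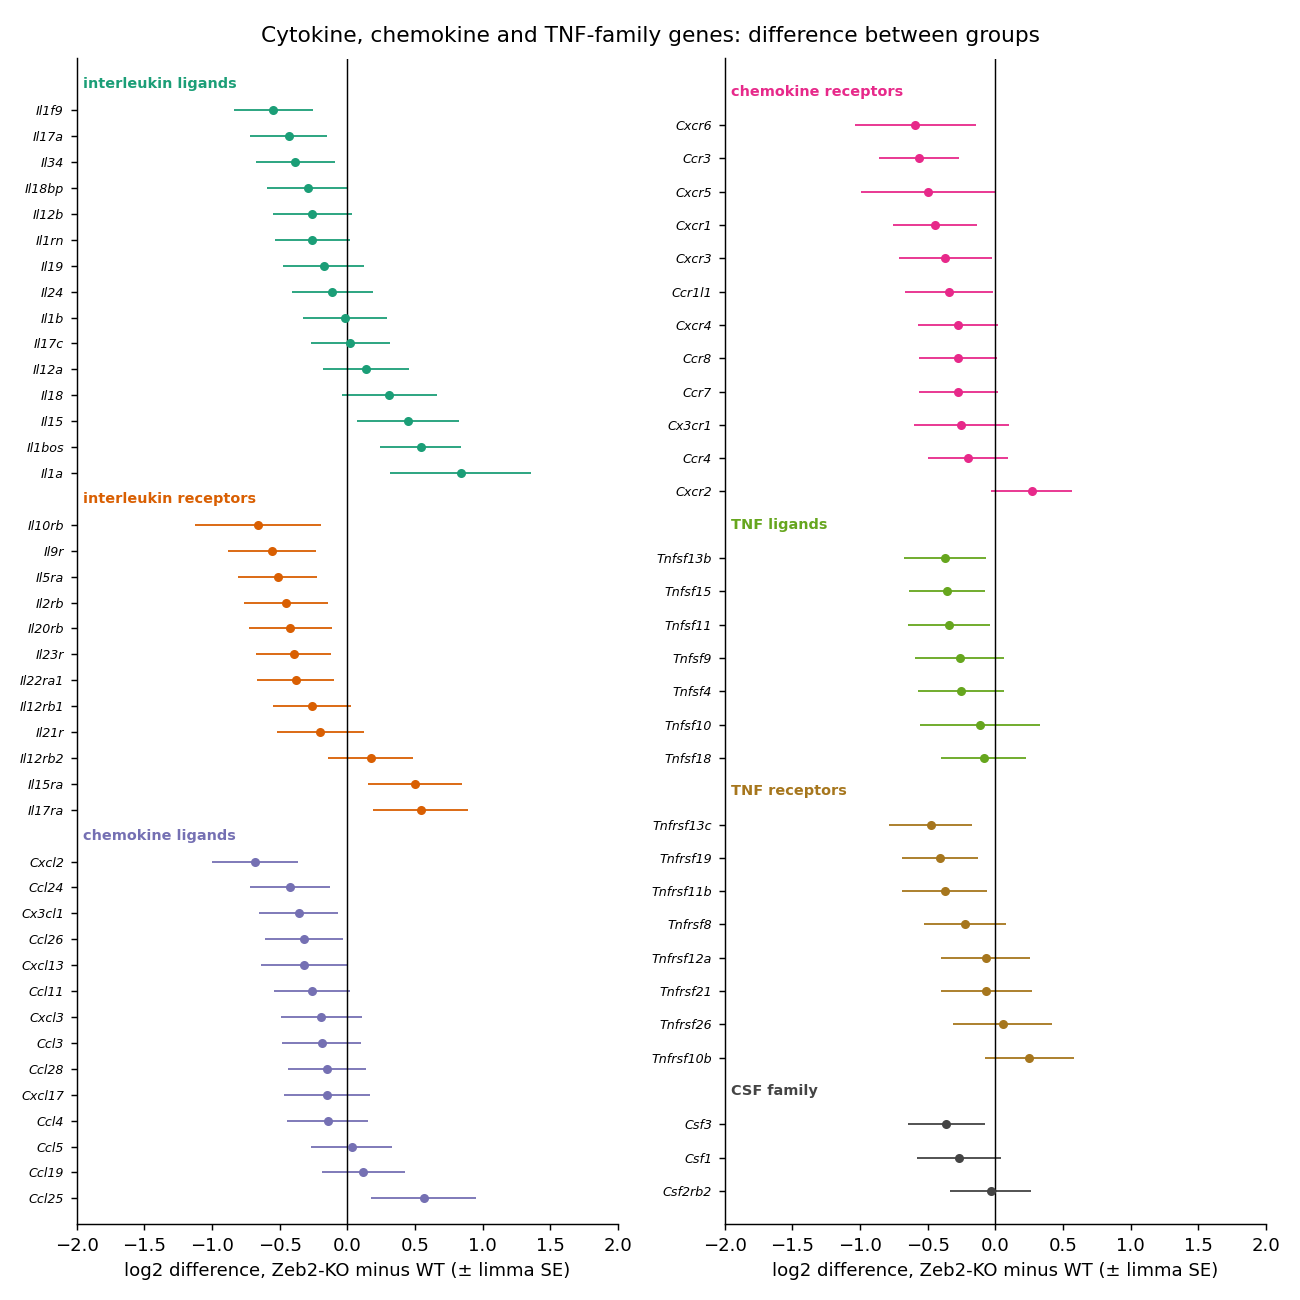
Log2 difference of each of the 71 genes (Zeb2-KO-labelled minus WT, horizontal axis), grouped by role, with bars of ± 1 limma SE, 3 arrays in each group. Most points sit left of 0, from -0.68 (Cxcl2) to 0.84 (Il1a), and no gene passed an adjusted p of 0.05.

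The lean toward lower values moved with the spread of the arrays. The interquartile range of log2 intensity over all tested probe sets was 1.83, 2.40 and 2.11 on the Zeb2-KO-labelled arrays, against 1.59, 2.03 and 1.77 on the WT arrays, each in replicate number order. The median deviation of the 71 genes from their own 6-array means was 0.066, -0.32 and -0.13 on the Zeb2-KO-labelled arrays, against 0.36, -0.055 and 0.014 on the WT arrays. The array with the widest spread, Zeb2-KO replicate 2, therefore gave the lowest values, and the array with the narrowest spread, WT replicate 1, the highest. Zeb2-KO replicate 2 was the lowest of the 6 arrays for 35 of the 71 genes, and WT replicate 1 was the highest for 40. The same held for dim probe sets at large, since among all tested probe sets below the median signal Zeb2-KO replicate 2 was lowest in 48.4% and WT replicate 1 highest in 48.9%. It did not hold for brighter probe sets at large. At or above the median signal their median deviation was 0.28 on Zeb2-KO replicate 2 and -0.23 on WT replicate 1. Members at or above that signal had -0.29 and 0.25 on these arrays, and the cause was not tested.

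Most members are dim on this array. Of the 71 probe sets, 50 lay below the median mean log2 intensity of all tested probe sets (6.63). Below that median 42 of 50 members had a difference under 0 (84.0%, median -0.27), against 74.3% of all tested probe sets there (median -0.23). At or above it 14 of 21 members had one (66.7%, median -0.20), against 36.5% of all tested probe sets there (median 0.18). When each array's interquartile range entered the fit as a covariate, the split became 31 higher and 40 lower and the median difference of members -0.032, against -0.0067 over all tested probe sets. Array spread and group also run together (both widest arrays are labelled Zeb2-KO and both narrowest WT), so group and spread cannot be fully told apart in that fit. Probe set signal depends on the probes as well as the transcript, so the signals of different genes are not ranked as transcript levels here.

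**Figure D2:**
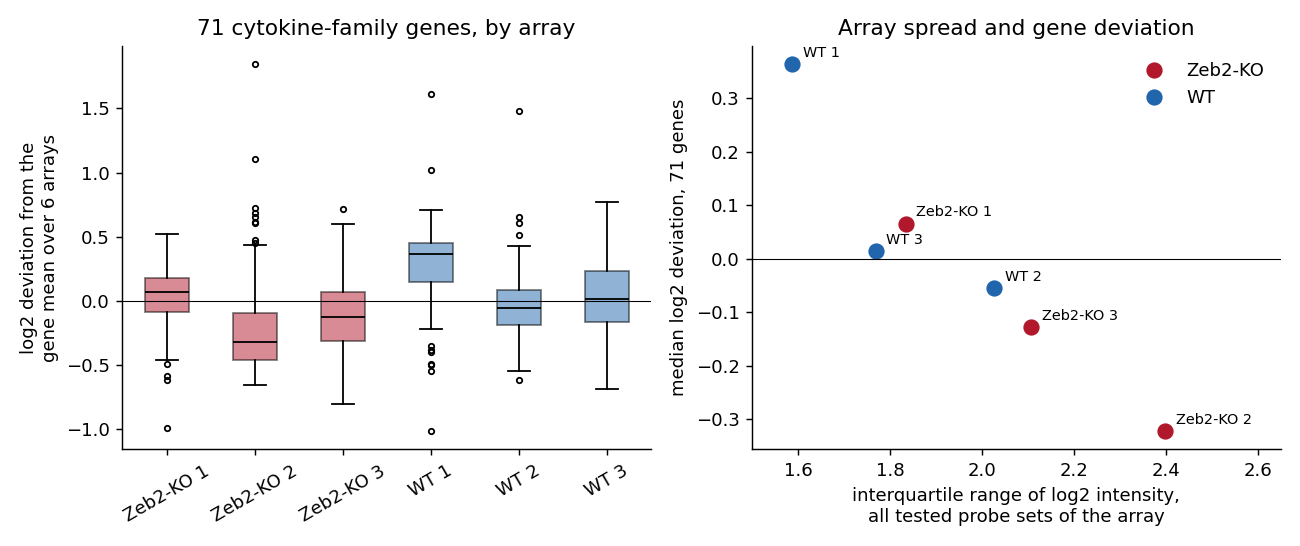
Left, log2 deviation of the 71 genes from their means over the 6 arrays, as box plots by array (line, median; box, interquartile range; whiskers, the farthest values within 1.5 box lengths). Right, the median deviation of the 71 genes against the interquartile range of all tested probe sets, 1 point per array, running from Zeb2-KO replicate 2 (2.40, -0.32) to WT replicate 1 (1.59, 0.36).

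**Figure D3:**
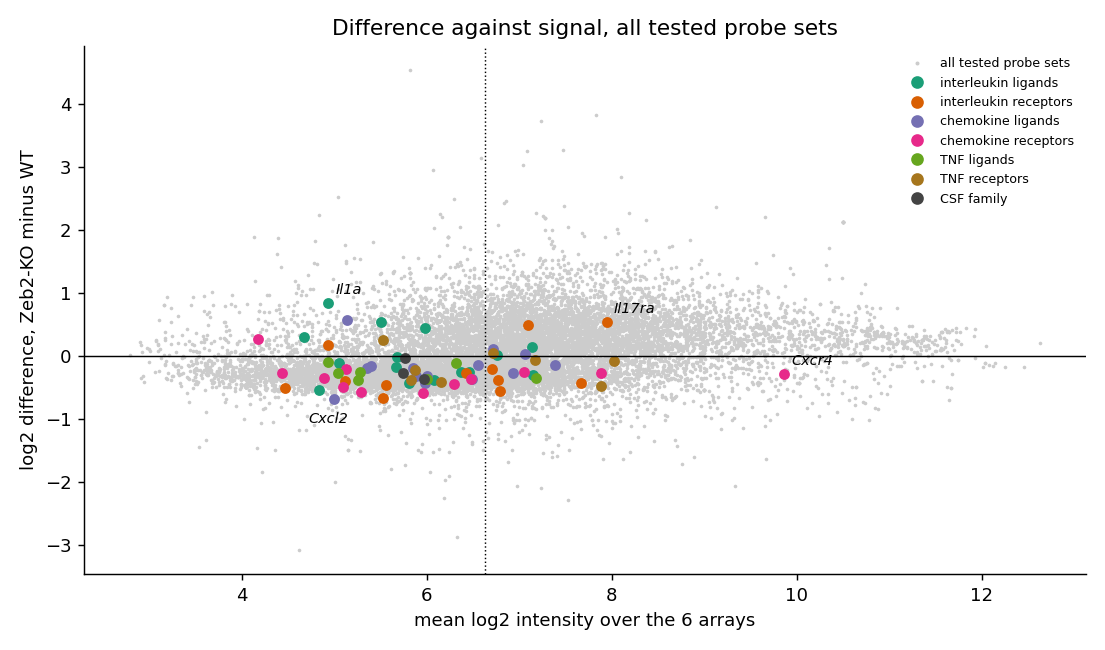
Log2 difference (Zeb2-KO-labelled minus WT) against mean log2 intensity over the 6 arrays for all 14610 tested probe sets in grey, with the 71 genes coloured by role. The dotted line marks the median signal of 6.63, with 50 of the 71 genes to its left.

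Zeb2 stood at 7.79, 9.13 and 8.96 in Zeb2-KO-labelled arrays, against 6.58, 7.51 and 7.34 in WT, higher where the label says deleted (difference 1.48, adjusted p = 0.581), from 1 probe set whose place relative to the deleted part is not given in the sources used here. Every direction in this text therefore rests on the labels. Y-linked genes were raised in Zeb2-KO replicate 1 and WT replicate 1 (mean log2 6.17 and 5.13, against 3.82 to 4.03 in the other 4 arrays). WT replicate 1 also correlated least with the others (mean r = 0.841, against 0.886 to 0.908). The stem cell gate list, 11 of 14 genes measured, averaged 7.88 to 8.35 in Zeb2-KO-labelled arrays and 7.64 to 8.37 in WT. Within that list 5 genes were higher and 6 lower, and none passed the adjusted threshold. Slamf1, the CD150 antigen of the gate, stood at 8.31, 9.01 and 8.30 in Zeb2-KO-labelled arrays, against 5.76, 8.02 and 7.94 in WT (difference 1.30, adjusted p = 0.673). Kit, the stem cell factor receptor, averaged 10.18 in Zeb2-KO-labelled arrays (SD 0.047, n = 3) and 9.65 in WT (SD 0.57, n = 3), a difference of 0.53 (limma adjusted p = 0.673). Cd48, an antigen that marks more committed progenitors, stood at 6.79, 6.86 and 5.72 against 7.19, 7.70 and 7.55 (difference -1.02, adjusted p = 0.656). The groups did not overlap in these 3 genes, nor in Gata2 (difference 0.35) and Procr (-0.45) of the same list. Of all tested probe sets, 13.2% had groups without overlap in either direction. The rest of the list overlapped, with Ctnnal1 (1.19) and Meis1 (0.66) higher and Cd34 (-0.69), Mecom (-0.38), Fgd5 (-0.29) and Hlf (-0.21) lower. The part of gate composition in the cytokine and receptor differences was not tested.

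Array averages of the B cell, megakaryocyte and platelet, erythroid, and stromal and endothelial marker lists lay apart between the groups. Those of the monocyte and dendritic cell, T and NK cell, and granulocyte and mast cell lists overlapped. The nearest arrays of the groups were close in the B cell list (7.12 against 7.15) and the stromal and endothelial list (6.41 against 6.45). In sorted bulk samples fewer cells of a type and less RNA per cell cannot be told apart. Over the whole array, 74.3% of tested probe sets below the median signal had a difference under 0, and 36.5% of those at or above it. The part of array spread in the marker lists was not tested. The B cell list averaged 6.35 to 7.12 in Zeb2-KO-labelled arrays and 7.15 to 7.99 in WT, with all 12 measured markers of 14 lower. Monocyte and dendritic cell markers averaged 6.95 to 7.44 against 7.36 to 7.80, with 10 of 11 lower. Megakaryocyte and platelet markers averaged 7.82 to 8.54 in Zeb2-KO-labelled arrays and 6.64 to 7.10 in WT, with 9 of 10 higher. Erythroid markers averaged 7.11 to 7.71 against 6.66 to 6.93, with 6 of 7 higher. Stromal and endothelial markers averaged 6.03 to 6.41 against 6.45 to 6.75, with all 8 measured lower. T and NK cell markers averaged 5.64 to 6.05 against 5.65 to 6.17, with 4 higher and 4 lower. Granulocyte and mast cell markers averaged 5.58 to 6.35 against 5.72 to 5.91, with 3 higher and 4 lower. None of the markers passed the adjusted threshold, and their part in the cytokine and receptor differences was not tested.

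Promoters of the members were read because Zeb2 protein is known to bind E-boxes of the letters CACCTG and to repress from them. RefSeq promoter windows (assembly GRCm38.p6, 250 bases before to 50 after a gene's start) were found for 50 of the 71 genes, 57 windows in all. CACCTG, read on both strands, occurred in 14 of the 57 windows (24.6%), against 20.2% of all 32851 windows in the table. The 14 genes with the motif had a median difference of -0.21, with 10 lower and 4 higher, and the 36 genes without it -0.26, with 30 lower and 6 higher. Printed here are the windows of the motif-bearing genes at either end of the difference, Il15ra (0.50) and Il9r (-0.55), with the motif in capitals.
Il15ra, chr2:11705462-11705761, plus strand: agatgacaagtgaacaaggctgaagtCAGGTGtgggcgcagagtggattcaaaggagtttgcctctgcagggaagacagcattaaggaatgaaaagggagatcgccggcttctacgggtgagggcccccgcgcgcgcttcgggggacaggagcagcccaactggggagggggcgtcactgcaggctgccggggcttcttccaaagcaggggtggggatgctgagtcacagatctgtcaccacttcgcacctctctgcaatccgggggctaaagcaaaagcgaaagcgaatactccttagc
Il9r, chr11:32200230-32200529, minus strand: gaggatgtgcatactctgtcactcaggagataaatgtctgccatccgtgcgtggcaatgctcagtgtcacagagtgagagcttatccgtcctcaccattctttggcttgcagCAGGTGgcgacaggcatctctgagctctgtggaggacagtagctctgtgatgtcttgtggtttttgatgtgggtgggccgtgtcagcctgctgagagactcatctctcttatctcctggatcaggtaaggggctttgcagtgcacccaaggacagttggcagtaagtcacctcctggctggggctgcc
In both windows the motif stands as its reverse complement, starting 224 bases before the Il15ra start and 138 bases before the Il9r start.

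A second motif, the NF-kB site of GGGA, any base and TTTCC, was read on both strands in the same windows because NF-kB is known to switch on many chemokine genes. It occurred in 4 of the 57 windows (7.02%), those of Cxcl2, Cxcl3, Csf1 and Ccr3, against 0.411% of all windows. No member gene had both motifs in its windows. Cxcl2 and its neighbour Cxcl3, both neutrophil-attracting chemokines, are shown with the motif in capitals, because Cxcl2 had the smallest p of all members.
Cxcl2, chr5:90903649-90903948, plus strand: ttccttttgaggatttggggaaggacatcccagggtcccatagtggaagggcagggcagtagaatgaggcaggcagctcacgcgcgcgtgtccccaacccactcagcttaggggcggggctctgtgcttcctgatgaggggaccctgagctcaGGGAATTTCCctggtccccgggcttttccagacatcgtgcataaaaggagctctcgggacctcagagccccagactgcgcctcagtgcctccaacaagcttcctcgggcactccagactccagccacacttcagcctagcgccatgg
Cxcl3, chr5:90785851-90786150, plus strand: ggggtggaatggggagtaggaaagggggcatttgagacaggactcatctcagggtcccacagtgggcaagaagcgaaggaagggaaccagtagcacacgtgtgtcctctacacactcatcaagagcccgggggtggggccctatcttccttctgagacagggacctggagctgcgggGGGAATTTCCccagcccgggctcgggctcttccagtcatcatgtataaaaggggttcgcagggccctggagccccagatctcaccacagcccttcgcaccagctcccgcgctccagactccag
The motif starts 97 bases before the Cxcl2 start and 73 bases before the Cxcl3 start, in the same letters in both. A match describes the window and is not a measured binding site.

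Among chemokine ligands Cxcl2 stood at 5.10, 4.59 and 4.27 in Zeb2-KO-labelled arrays, against 5.38, 5.60 and 5.03 in WT. The highest Zeb2-KO array lay just above the lowest WT array, so the groups overlapped by a single array on each side. The difference was -0.68 (SE 0.32, 95% interval -1.38 to 0.02, unadjusted p = 0.0543, limma adjusted p = 0.673). Cxcl3 gave a smaller difference, -0.19, with 5.47, 4.96 and 5.34 against 5.79, 5.38 and 5.17. Of the receptors for neutrophil chemokines, Cxcr1 stood at 6.50, 5.83 and 5.88 in Zeb2-KO-labelled arrays and 6.67, 6.69 and 6.18 in WT (difference -0.44), and Cxcr2, the receptor of Cxcl2 and Cxcl3 and the 1 chemokine receptor above 0, had a difference of 0.27 around a mean log2 of 4.17.

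The eosinophil axis joins the eotaxins Ccl11, Ccl24 and Ccl26 (the last known as an eotaxin from humans) to the receptor Ccr3. Ccr3 was 5.20, 4.90 and 4.93 in Zeb2-KO-labelled arrays and 5.95, 5.33 and 5.44 in WT, without overlap. Its difference was -0.56 (SE 0.29, 95% interval -1.21 to 0.08, adjusted p = 0.673). All 3 eotaxins lay on the same side, at -0.26 for Ccl11, -0.42 for Ccl24 and -0.32 for Ccl26. Il5ra, the receptor chain through which interleukin-5 sustains eosinophils, stood at 4.27, 4.01 and 4.36, against 4.93, 4.89 and 4.35 in WT, with the WT replicate 3 value among those of Zeb2-KO-labelled arrays (difference -0.51, SE 0.29). These 5 probe sets had mean log2 signals of 4.47 to 6.93, and 4 of them lay below the array median. All 5 differences were below 0, as were those of 78.9% of all members and 84.0% of members below that median.

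Cxcr4, the receptor for the niche chemokine Cxcl12, had the highest signal of the members, at 10.08, 9.36 and 9.74 in Zeb2-KO-labelled arrays and 10.08, 9.87 and 10.06 in WT. The group ranges overlapped, and Zeb2-KO replicate 2 was the lowest array. Its difference was -0.28 (SE 0.29, 95% interval -0.93 to 0.37, adjusted p = 0.681), an interval that leaves out a 2-fold change. Once array spread entered the fit it was 0.036. Ccr7, the lymph-node homing receptor of lymphocytes and dendritic cells, stood at 7.39, 7.82 and 8.03 against 8.13, 7.82 and 8.12 (difference -0.28), and its ligand Ccl19 at 7.17, 6.47 and 6.67 against 6.96, 6.45 and 6.54 (difference 0.12, and 0.24 in its second probe set, in a gene known to have near-identical copies in the mouse genome). Cx3cr1, the fractalkine receptor of monocytes, was highest in replicate 1 of each group, at 7.49, 6.41 and 6.86 in Zeb2-KO-labelled arrays and 7.63, 6.94 and 6.95 in WT. The difference was -0.25, and that of its ligand Cx3cl1 -0.36.

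Cxcr5 and Cxcr6, chemokine receptors of lymphocytes, varied between single arrays. Cxcr5, which guides B cells into follicles, stood at 5.05, 4.71 and 4.78 in Zeb2-KO-labelled arrays and 6.71, 4.54 and 4.78 in WT. WT replicate 1 alone was high, 1.66 log2 units above the next array, and without it the difference turned from -0.50 to 0.18. In that array the B cell marker list was also at its highest, 7.99. So were the monocyte and dendritic cell list (7.80) and the T and NK cell list (6.17). The same array was highest in 48.9% of all tested probe sets below the median signal. Cxcr6, a receptor of T and NK cells, was high in Zeb2-KO replicate 3 and in WT replicates 1 and 2 (5.35, 5.31 and 6.34 against 6.98, 6.48 and 5.31), a difference of -0.59 that did not pass the test (adjusted p = 0.673). Leaving out 1 array gave -1.06 (without WT replicate 3) to -0.23 (without WT replicate 1), and array weights gave 0.43. Cxcr3 (-0.37), Ccr4 (-0.20), Ccr8 (-0.28) and Ccr1l1 (-0.34) completed the receptors. Cxcr5, Cxcr6, Il10rb and Tnfsf10 are named because their array values stood out, after those values were seen.

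The remaining chemokines stayed within 0.57 of 0. Ccl25, which draws T cell progenitors to the thymus, was high in Zeb2-KO replicate 2 at 6.25, with 4.72 and 5.31 in the other Zeb2-KO-labelled ones, against 5.16, 4.62 and 4.79 in WT. Its difference of 0.57 was 0.16 without that array. Ccl3 (-0.19), Ccl4 (-0.15) and Ccl5 (0.034), inflammatory chemokines, lay close to 0, and the 95% interval of Ccl5 was -0.63 to 0.70. Cxcl13, the ligand of Cxcr5, lay at -0.32, Ccl28 at -0.15 and Cxcl17 at -0.15.

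**Figure D4:**
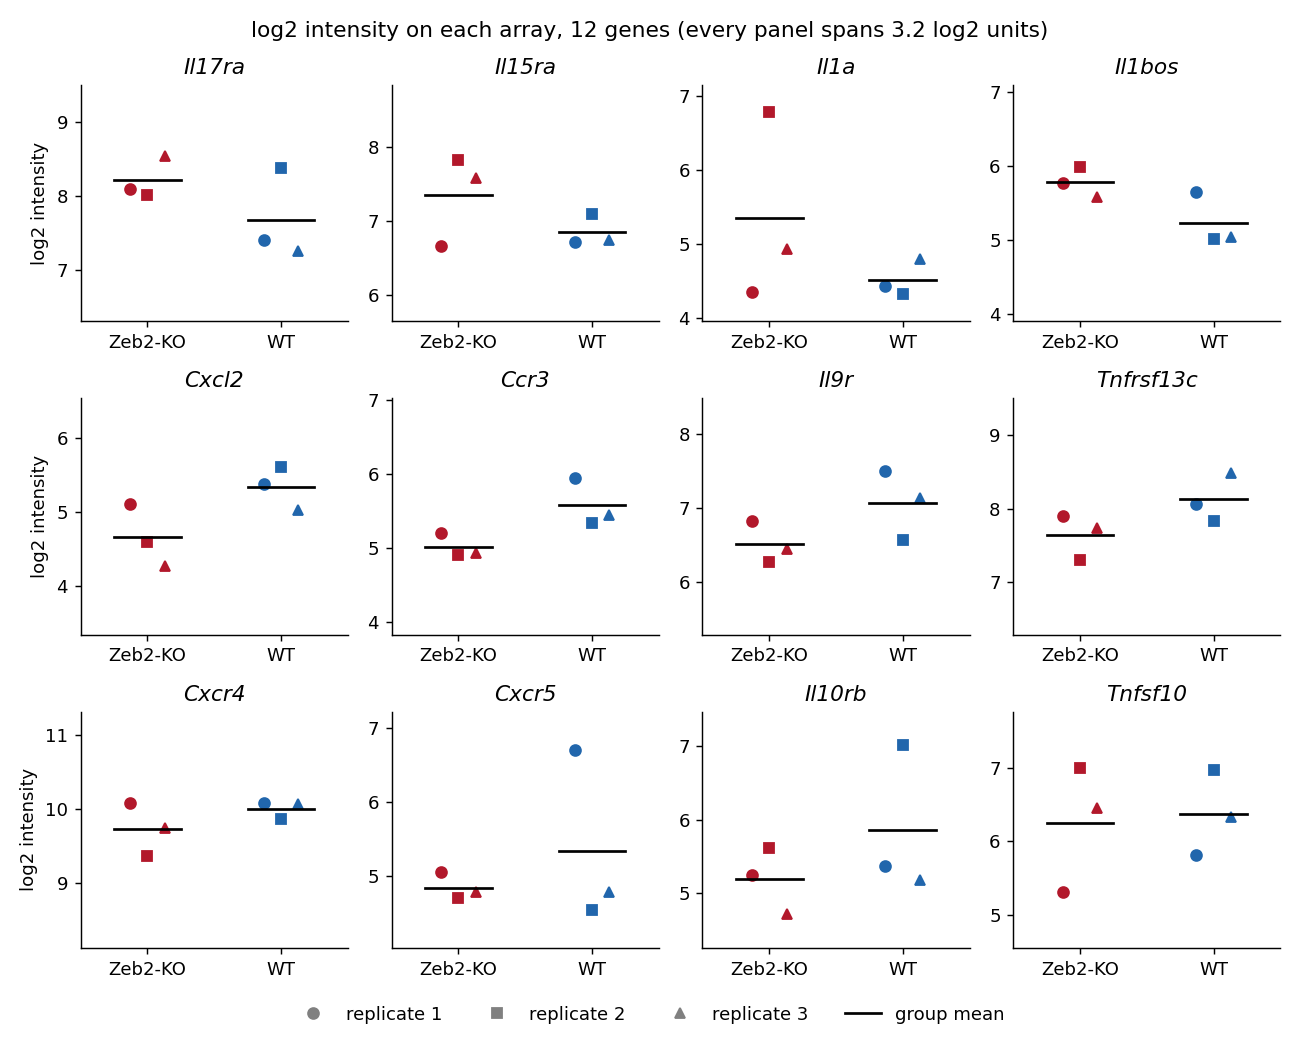
Log2 intensity of 12 genes on each array, Zeb2-KO-labelled arrays left and WT right, with 1 symbol per replicate and a line at the group mean. Ccr3 is the 1 gene shown whose groups do not overlap, while single arrays stand apart in Il1a (Zeb2-KO replicate 2), Cxcr5 (WT replicate 1) and Il10rb (WT replicate 2).

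Interleukin receptors lay on both sides of 0. Il17ra, the signalling receptor for interleukin-17, stood at 8.09, 8.02 and 8.54 in Zeb2-KO-labelled arrays and 7.40, 8.37 and 7.26 in WT. The 3 Zeb2-KO-labelled values sat close together and WT replicate 2 lay among them. Its difference was 0.54 (SE 0.35, 95% interval -0.23 to 1.32, adjusted p = 0.673), and leaving out 1 array at a time gave 0.33 (without WT replicate 3) to 0.89 (without WT replicate 2). Once array spread entered the fit it was 0.29. The ligands Il17a (5.93, 5.33 and 5.53 against 6.12, 6.00 and 5.96, difference -0.43) and Il17c (difference 0.024) lay below and near 0.

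Il15ra, which presents interleukin-15 to neighbouring cells, stood at 6.65, 7.82 and 7.57 in Zeb2-KO-labelled arrays, against 6.72, 7.09 and 6.74 in WT. Zeb2-KO replicate 1 was the lowest of all 6, and the other two arrays of that group were the highest. The difference was 0.50 (SE 0.35, 95% interval -0.27 to 1.26), and -0.016 once array spread entered the fit. Il15 itself, which sustains NK cells and memory T cells, was 5.95, 6.64 and 6.04 against 4.97, 6.06 and 6.25. Its difference of 0.45 was 0.055 without WT replicate 1, the one low array. Il2rb, the chain that interleukin-2 and interleukin-15 share, lay the other way at -0.45.

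Il9r, the receptor for the mast cell growth factor interleukin-9, stood at 6.82, 6.27 and 6.45 in Zeb2-KO-labelled arrays and 7.50, 6.56 and 7.14 in WT. Values overlapped, with the lowest array of each group being replicate 2. The difference was -0.55 (SE 0.33, 95% interval -1.27 to 0.16), with -0.80 (without WT replicate 2) to -0.34 (without WT replicate 1) when 1 array was left out. Once array spread entered the fit it was -0.099. The receptors of the interleukin-10 family were also below 0. Il20rb, a chain of the receptors through which Il19 and Il24 act, stood at 7.69, 7.26 and 7.44 against 8.26, 7.48 and 7.91 (difference -0.42 in each of its 2 probe sets, and -0.053 in the first once array spread entered the fit). Il22ra1, the interleukin-22 receptor of epithelia, stood at 6.73, 6.29 and 6.72 against 7.18, 6.73 and 6.96 (difference -0.38). Its groups were barely without overlap, with 6.725 in Zeb2-KO replicate 1 and 6.734 in WT replicate 2. In its second probe set the groups overlapped (difference -0.28). The ligands Il19 and Il24 lay at -0.17 and -0.11.

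Il10rb, a second chain shared within that family, had a difference of -0.66 in which 1 array stood apart. Values were 5.24, 5.62 and 4.72 in Zeb2-KO-labelled arrays and 5.37, 7.01 and 5.18 in WT. Without WT replicate 2 the difference was -0.085, and once array spread entered the fit it was -1.27. Il21r lay at -0.20.

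The interleukin-12 and interleukin-23 system was measured for the 2 subunits of interleukin-12 and for 3 receptor chains, all within 0.40 of 0. Il12a, the interleukin-12 subunit that interleukin-23 does not share, stood at 7.60, 6.90 and 7.14 in Zeb2-KO-labelled arrays and 7.25, 7.31 and 6.66 in WT (difference 0.14). Il12b, the subunit that interleukin-23 shares, lay at -0.26. Of the receptors, Il12rb1 lay at -0.26, Il12rb2 at 0.17 and Il23r at -0.40. Il23r values of 5.05, 4.90 and 4.81 against 5.50, 5.35 and 5.10 did not overlap, at a signal well under the array median.

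Interleukin-1 family genes gave the extreme of the whole set. Il1a, an alarm cytokine released from damaged cells, stood at 4.35, 6.78 and 4.93 in Zeb2-KO-labelled arrays and 4.43, 4.32 and 4.80 in WT. Zeb2-KO replicate 2 was 1.85 log2 units above the next array and the other 5 fell between 4.32 and 4.93. The difference of 0.84 (SE 0.52, adjusted p = 0.673), or 1.79-fold, was 0.13 without that array. Il1b, the inflammasome-processed sister gene, was 5.68, 6.11 and 5.23 against 5.84, 5.58 and 5.66, a difference of -0.017 with a 95% interval of -0.70 to 0.66.

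Il1bos, an RNA from the strand opposite Il1b whose RefSeq span overlaps that of Il1b, stood at 5.77, 5.98 and 5.58 in Zeb2-KO-labelled arrays and 5.65, 5.01 and 5.04 in WT. Only WT replicate 1 reached the range of the other group. Its difference was 0.54 (SE 0.30, unadjusted p = 0.096). Whether its probes lie in the stretch shared with Il1b is not given in the sources used here. Il1f9, also known as interleukin-36 gamma, stood at 4.79, 4.38 and 4.52 against 5.41, 4.77 and 5.14 (difference -0.54), and the antagonist Il1rn lay at -0.26.

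For interleukin-18 the ligand and its decoy were members. Il18 was 4.51, 4.58 and 5.39 in Zeb2-KO-labelled arrays, against 5.03, 4.38 and 4.15 in WT (difference 0.31), and Il18bp, which binds and neutralises it, lay at -0.29. Il18r1, left out by the rule, stood at 7.17, 7.17 and 7.62 against 5.50, 5.56 and 5.81 in WT, a difference of 1.70 without overlap (adjusted p = 0.227). Of the other receptor genes left out, Il10ra lay at -1.24, Il4ra at -0.77 (adjusted p = 0.657 for both) and Il6st at 0.39 (adjusted p = 0.673).

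TNF ligands lay between -0.37 and -0.088. Other settings put Tnfsf18 (quantile normalization, and some fits with arrays left out) and Tnfsf11 (0.032 once array spread entered the fit) above 0. Tnfsf10 lay above 0 with array weights and in some fits with arrays left out. Tnfsf4, Tnfsf9 and Tnfsf18 were not followed by gene through every setting. Tnfsf13b, the B cell survival factor BAFF, was 5.33, 4.78 and 5.09 in Zeb2-KO-labelled arrays and 5.79, 5.13 and 5.40 in WT (difference -0.37). Its receptor Tnfrsf13c, a surface protein of B cells, was 7.90, 7.30 and 7.74 against 8.06, 7.83 and 8.48. The highest Zeb2-KO-labelled array lay above the lowest WT array. The difference was -0.48 (SE 0.31, 95% interval -1.15 to 0.20, adjusted p = 0.673), beside the lower B cell marker list given above.

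Tnfsf11, or RANKL, which drives osteoclast formation, stood at 7.41, 6.67 and 6.97 in Zeb2-KO-labelled arrays and 7.63, 7.19 and 7.25 in WT (difference -0.34), and its soluble decoy Tnfrsf11b at -0.37. Tnfsf15 was 6.02, 5.69 and 5.78 against 6.39, 5.91 and 6.27 (difference -0.36). The T cell costimulators Tnfsf4, Tnfsf9 and Tnfsf18 lay at -0.25, -0.26 and -0.088.

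Tnfsf10, the death ligand TRAIL, varied most between replicate numbers. It stood at 5.32, 6.99 and 6.45 in Zeb2-KO-labelled arrays and 5.82, 6.96 and 6.33 in WT, lowest in replicate 1 of each group, the 2 arrays with raised Y-linked signal. The difference was -0.11 (SE 0.45). Once array spread entered the fit it was -1.01, the 1 of 71 members then past an unadjusted p of 0.01 and 1.5-fold (adjusted p = 0.972), where 0.938% of all tested probe sets passed. Its receptor Tnfrsf10b lay at 0.25.

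Among other TNF receptors Tnfrsf12a, the receptor of TWEAK, stood at 8.54, 7.80 and 7.62 against 8.16, 8.26 and 7.75 in WT, a difference of -0.072 that turned positive without Zeb2-KO replicate 2 (0.021), Zeb2-KO replicate 3 (0.11) or WT replicate 2 (0.032). Tnfrsf19 was 6.13, 5.80 and 5.93 against 6.57, 6.08 and 6.44 (difference -0.41). Tnfrsf26 was 6.92, 6.43 and 6.88 against 6.32, 6.27 and 7.48 (difference 0.053), with WT replicate 3 highest of all arrays. Tnfrsf8, or CD30, and Tnfrsf21, or death receptor 6, lay at -0.22 and -0.066.

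Colony-stimulating factors direct granulocyte and macrophage output, and all 3 measured genes of that family were dim. Csf3, the granulocyte factor, was 5.90, 5.57 and 5.91 in Zeb2-KO-labelled arrays and 6.43, 5.89 and 6.14 in WT (difference -0.36). Csf1, the macrophage factor, was 5.96, 5.34 and 5.54 against 6.10, 6.05 and 5.50 (difference -0.27, 95% interval -0.95 to 0.41). Il34, which binds the same receptor as Csf1, lay at -0.38. Csf2rb2, the mouse beta chain for interleukin-3, lay at -0.035, and it has a close copy in Csf2rb, so its signal may be shared.

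Genes of the same pathways that the symbol rule does not reach were also read. Of 48 ligands and receptors listed, 27 were measured, with 9 higher and 18 lower (median -0.14), and none passed the adjusted threshold. The smallest p values belonged to the platelet chemokines Ppbp (difference 3.28, SE 0.67, adjusted p = 0.333) and Pf4 (2.21, SE 0.57, adjusted p = 0.563) and to Ifngr2, an interferon-gamma receptor chain (-0.88, SE 0.39, adjusted p = 0.673). Ppbp and Pf4 are chemokines by structure and also belong to the megakaryocyte and platelet marker list, and the groups did not overlap in either gene. Of 28 receptor-proximal adaptors and inhibitors, 18 were measured, with 8 higher and 10 lower (median -0.15). There the smallest p values were those of Ptpn6, the phosphatase SHP-1 that restrains cytokine receptors (-0.65, SE 0.27), of Arrb2, which uncouples chemokine receptors (0.65, SE 0.28), and of Sigirr, an inhibitory interleukin-1 receptor relative (-0.53, SE 0.27), each at an adjusted p of 0.673.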

How the data were processed

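Total RNA of sorted LKS-Slam cells from 3 Zeb2-KO and 3 WT bone marrow samples was amplified and biotinylated for 1 array per sample, per the labels' protocols. The authors deposited 1 intensity per probe set and array, made with RMA per the submitters' processing notes, on a linear scale as judged from the values. For the RMA version and scaling, nothing is stated in the sources used here. Medians per array lay between 94.3 and 99.2, and array values carry no read depth.

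Log2 was taken. Of 20220 probe sets, 5610 with identifiers below the first annotated one were left out. For the other 14610, lmFit and eBayes of limma 3.58.1 (R 4.3.3) were used, with 4 residual degrees of freedom and 6.87 from the prior. Benjamini-Hochberg adjustment ran over all of them, at 0.05. The procedure was tested on simulated data with independent noise and planted changes larger than any member difference here. That test does not show how differences of the sizes reported here, or shifts shared across an array, are handled. Genes were named from the platform annotation, and all 71 members matched RefSeq (GRCm38.p6) by gene ID. Members named by rule are those with the smallest p in each direction above (10) and below (4) the median signal, 2 per role class, the 5 of highest signal and a list of known stem cell cytokine genes. These, with Cxcr5, Cxcr6, Il10rb and Tnfsf10, were followed by gene through the settings. Differences of other members are given without that full follow-up. Members, lists and rules were chosen with earlier results of these data known. Alternatives changed the filter, scaling, variance prior, weights, block, covariate, probe set and arrays. Labels do not say that samples are from separate mice beyond calling them biological replicates. The p-values therefore set each difference against the spread between these samples, as moderated by limma.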

Additional observations from a re-analysis of the deposited data

How the results depend on the processing

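In all but 1 of the other settings tried, also with every probe set of a gene counted, no member passed the adjusted threshold. The exception was array weights, with 2 members past adjusted p 0.05 (Il17ra 0.99, Cxcl2 -0.87) and 4 past an unadjusted p of 0.01 and 1.5-fold (5.63%, against 12.8% of all tested probe sets). Adjusted p ran over all settings from 0.0494 to 0.999 for Cxcl2 and from 0.0487 to 0.999 for Il17ra. With the interquartile range as a covariate 1 member passed the second threshold (1.41%, against 0.938% of all tested probe sets) and the median difference of members was -0.032. Leaving out 1 array at a time gave medians of -0.39 to -0.14 and 0 members past the adjusted threshold.

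Of 576 gene values over the 37 genes followed through the settings, 533 kept their sign and 43, in 16 genes, did not. Reversals were Ccl5 -0.083, Il17c -0.035 and Il1b 0.086 with quantile normalization. With array weights they were Tnfrsf26 -0.22, Ccl5 -0.22, Il17c -0.065, Il18bp 0.081, Cxcr6 0.43 and Tnfsf10 0.074. With the interquartile range covariate they were Il15ra -0.016, Il15 -0.072, Tnfsf11 0.032, Cxcr4 0.036, Cx3cr1 0.31, Tnfrsf12a 0.14 and Cxcr5 0.18. Leaving out both arrays of raised Y-linked signal gave Tnfrsf26 -0.22, Ccl5 -0.0055, Il1b 0.054, Cxcr5 0.082 and Tnfsf10 0.079. Leaving out 1 array at a time gave ranges through 0 for Il12a (-0.068 to 0.29), Ccl19 (-0.083 to 0.27), Tnfrsf26 (-0.16 to 0.45), Ccl5 (-0.082 to 0.25), Il17c (-0.17 to 0.18), Tnfsf10 (-0.48 to 0.35), Cx3cr1 (-0.54 to 0.0043), Tnfrsf12a (-0.35 to 0.11), Il1b (-0.24 to 0.21) and Cxcr5 (-0.90 to 0.18). The cause of these reversals was not tested.

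Deviations of same-numbered arrays correlated at 0.36, 0.41 and 0.047 across probe sets, so the numbers were not taken as pairs, although every array correlated best with its own number, a hint from the data and not the design. With the replicate number as a block 0 members passed the adjusted threshold (smallest adjusted p = 0.277) and 8 had an unadjusted p under 0.05, all lower (11.3%, against 17.8% of all tested probe sets), with the median at -0.26. Of the 71 probe sets 50 lay below the median signal, and with dim probe sets left out 0 of the other 21 passed (smallest adjusted p = 0.695). With 3 arrays in each group, differences of the size seen here stayed within the error.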
